A study of Mus musculus with 12 samples.

Results

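Nrg1 and the 4 ErbB receptor genes Egfr, Erbb2, Erbb3 and Erbb4 were followed through 12 RNA libraries of mLTC-1, an immortalized line of mouse Leydig cells, the cells that make androgens in the testis. These 5 genes, of 26214 symbols in the deposited table, were taken by symbol. Nrg1 was chosen by its fold change and adjusted p between treated and control cells in these same libraries, and the receptors because they bind its product or pair with those that do. The MSNBA group, 6 libraries by the labels, came from mLTC-1 cells exposed for 24 h to MSNBA at 100 µM, which by the series text blocks the fructose transporter Glut5. The control group, also 6 libraries, came from the same line given DMSO for 24 h. All cells grew in medium with fetal bovine serum, which itself carries growth factors, and the line is a tumour-derived model rather than Leydig cells of the testis. The deposited columns stand in an order that reads as 3 sets of 4 libraries rather than 2 groups of 6. Controls 2 and 4 stand there in the set of MSNBA 3 and 5, and all values below depend on the labels being correct. No genotype differs between the groups, and no label states that replicates were grown as separate cultures. The p-values therefore cover only the variation among these libraries, which may be technical.

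Neuregulin 1, the product of Nrg1, is a growth factor with an EGF-like domain that is released from, or displayed on, the cell surface. It binds the receptor tyrosine kinases made by Erbb3 and Erbb4, which pair with the product of Erbb2, a receptor with no known ligand of its own. Egfr encodes the receptor for EGF and its close relatives. ErbB pairs signal through adaptors to the RAS to ERK and the PI3 kinase to AKT branches, and in mouse Leydig tumour cells luteinizing hormone signalling is known to activate Egfr.

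Library totals ran from 94179 to 657251 counts in MSNBA and from 59113 to 234225 counts in controls, a 2.14-fold difference in geometric mean depth. Markers of Leydig cells were present throughout. The summed level of 8 of them was 7709 to 9533 CPM (a gene's share of the library total, scaled to 1000000 counts) in MSNBA and 7597 to 11100 CPM in controls. Markers of other cells that use ErbB signals were low beside these. Schwann and glial markers summed to 0 to 34.9 CPM in MSNBA and 0 to 47.6 CPM in controls. Epithelial markers summed to 0 to 10.6 CPM in MSNBA and 0 to 50.8 CPM in controls. Krt5, Krt14 and Krt18 were at 0 in every library, while Krt8, Epcam, Cdh1 and Cldn4 had 3 counts or fewer in each group. For scale, the mean of Egfr alone was 42.5 CPM in MSNBA and 54.2 CPM in controls. In each group the marker sums of Sertoli cells, germ cells, fibroblasts, macrophages and endothelial cells lay at or below 168.8 CPM. Those of Sertoli cells, 52.3 to 93.0 CPM in MSNBA and 59.5 to 110 CPM in controls, lay above the Egfr mean of their group. Only Nrg1 of the 5 genes had enough counts to enter the test across all genes, which covered 2614 genes.

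Nrg1, the ligand gene, was lower in MSNBA. In MSNBA replicates 1 to 6 it had 65, 20, 38, 20, 20 and 23 counts, or 98.9, 133, 111, 212, 110 and 134 CPM. In control replicates 1 to 6 it had 44, 14, 15, 30, 17 and 45 counts, or 188, 182, 179, 376, 288 and 309 CPM. MSNBA libraries 1, 2, 3, 5 and 6 lay below all 6 controls, whereas MSNBA 4, the shallowest of its group, lay above controls 1, 2 and 3. The controls themselves were uneven: replicates 4, 5 and 6 were above every MSNBA library, while replicates 1, 2 and 3 differed from each other by less than 10 CPM.

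**Figure D1:**
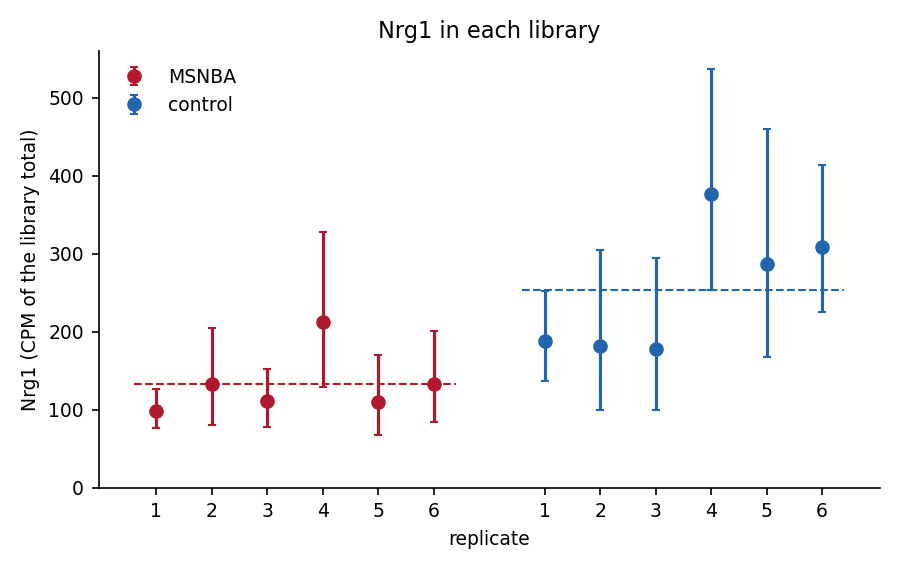
Nrg1 in each library, in CPM of the library total on the vertical axis, by replicate number and group on the horizontal axis. Bars are exact 95% Poisson intervals of the count, dashed lines are group means (133 CPM in MSNBA and 254 CPM in controls), and only MSNBA 4, at 212 CPM, reaches the range of the controls.

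The group means were 133 ± 41.2 CPM in MSNBA and 254 ± 82.9 CPM in controls (SD, n = 6 each). Pooled over libraries, Nrg1 had 186 counts in MSNBA and 165 in the shallower controls, a ratio of 0.479 with a counting interval from 0.387 to 0.595. The edgeR quasi-likelihood fit over all genes gave Nrg1 a log2 fold change of -1.04 (SE 0.21), which is 0.486-fold with a 95% interval from 0.366 to 0.646. That fit's p for Nrg1, 0.0295 after Benjamini-Hochberg adjustment, is the value by which the gene was chosen and is given as a description. By the same rule 0.0765% of the 2614 tested genes were called, Nrg1 and the actin-crosslinker gene Actn4, both lower. Nrg1 had the smallest p of all tested genes, and 1 gene had a lower log2 fold change. The biological coefficient of variation was 0.163 for Nrg1, against 0.143 in common over the tested genes.

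The log2 depth of the libraries was set against the Nrg1 level, as TMM-scaled log2 CPM, within each group. Within MSNBA, deeper libraries had lower Nrg1 CPM (Pearson r = -0.848, exact permutation p = 0.0389, and Spearman rho = -0.886, exact permutation p = 0.0333, n = 6). After Benjamini-Hochberg adjustment over the 2 groups these two-sided exact p-values were 0.0778 and 0.0666. Leaving out MSNBA 1 and 3, the libraries farthest from the median depth, left MSNBA 2, 4, 5 and 6 and gave r = -0.967. Among these MSNBA 4 was the shallowest, with 94179 counts and 212 CPM, while the others had 110 to 134 CPM. That r therefore leans on MSNBA 4. Within controls the same relation had r = -0.277 (exact permutation p = 0.562) and rho = -0.0286 (exact permutation p = 1, n = 6; adjusted 0.562 and 1), and r = -0.313 without controls 1 and 6. The window of 100000 to 250000 counts covers part of the depth range that both groups reach. In it MSNBA 2, 5 and 6 had 133, 110 and 134 CPM, and controls 1 and 6 had 188 and 309 CPM. MSNBA 4, with 94179 counts, fell just outside it, and its 212 CPM exceeded the level of control 1. A fit of the 5 libraries in the window, chosen after the data were seen, gave a log2 value of -0.90 (SE 0.28, adjusted p = 0.304 by edgeR). With log2 depth in the model it was -0.70 (SE 0.23, adjusted p = 0.388 by edgeR). With every library thinned to the 59113 counts of the shallowest it was -1.18 (SE 0.28, adjusted p = 0.155 by edgeR). None of these fits passed the threshold. The value kept its sign in each, but they reuse the libraries by which Nrg1 was chosen, so that is a description.

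**Figure D2:**
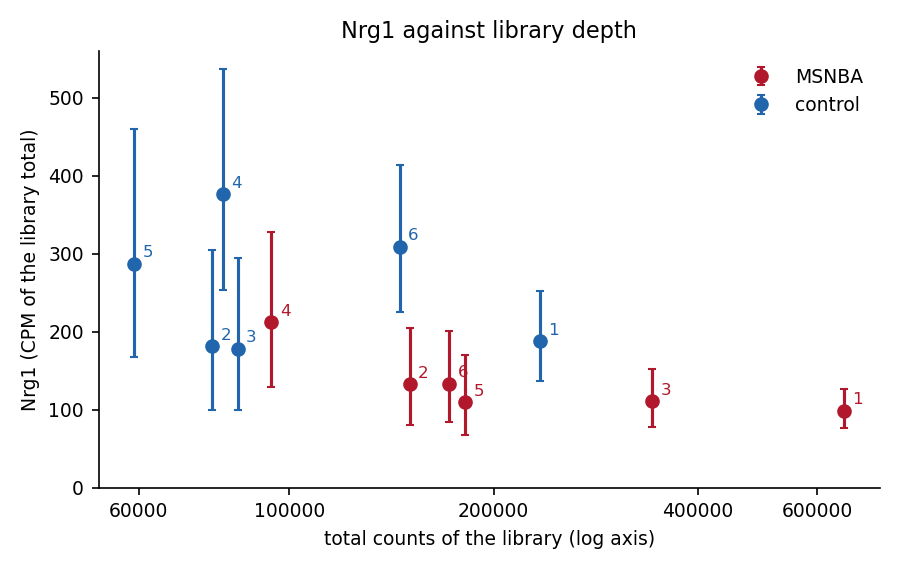
Nrg1 in CPM (vertical axis, with exact 95% Poisson intervals) against the total counts of each library (horizontal log axis), numbered by replicate. Between 100000 and 250000 counts the 3 MSNBA libraries lie between 110 and 134 CPM, below the 2 controls at 188 and 309 CPM. MSNBA 4, with 94179 counts, lies just outside that window at 212 CPM.

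The call rested on most of the libraries. Nrg1 missed the adjusted threshold of edgeR without MSNBA 1, 2, 3, 5 or 6 and without control 4, 5 or 6, with adjusted p-values of up to 0.181, and it passed without MSNBA 4 or control 1, 2 or 3. Without controls 2 and 4 together, the log2 value was -0.96 (SE 0.22, adjusted p = 0.0266 by edgeR). DESeq2 gave Nrg1 a log2 value of -0.99 (SE 0.25, adjusted p = 0.852) and limma-voom one of -1.04 (SE 0.21, adjusted p = 0.119). The DESeq2 adjustment ran over 19572 genes, without the low-count filter, and that of limma-voom over 2614. Both tools called 0 of the genes they tested. At an unadjusted p under 0.05 there were 394 of 19572 genes by DESeq2 and 259 of 2614 by limma-voom. The fold change itself stayed between -1.18 and -0.70 on the log2 scale in all 23 alternative settings, the added depth window included. All of these refit the libraries by which Nrg1 was chosen, so the kept sign and size are no independent evidence.

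**Figure D3:**
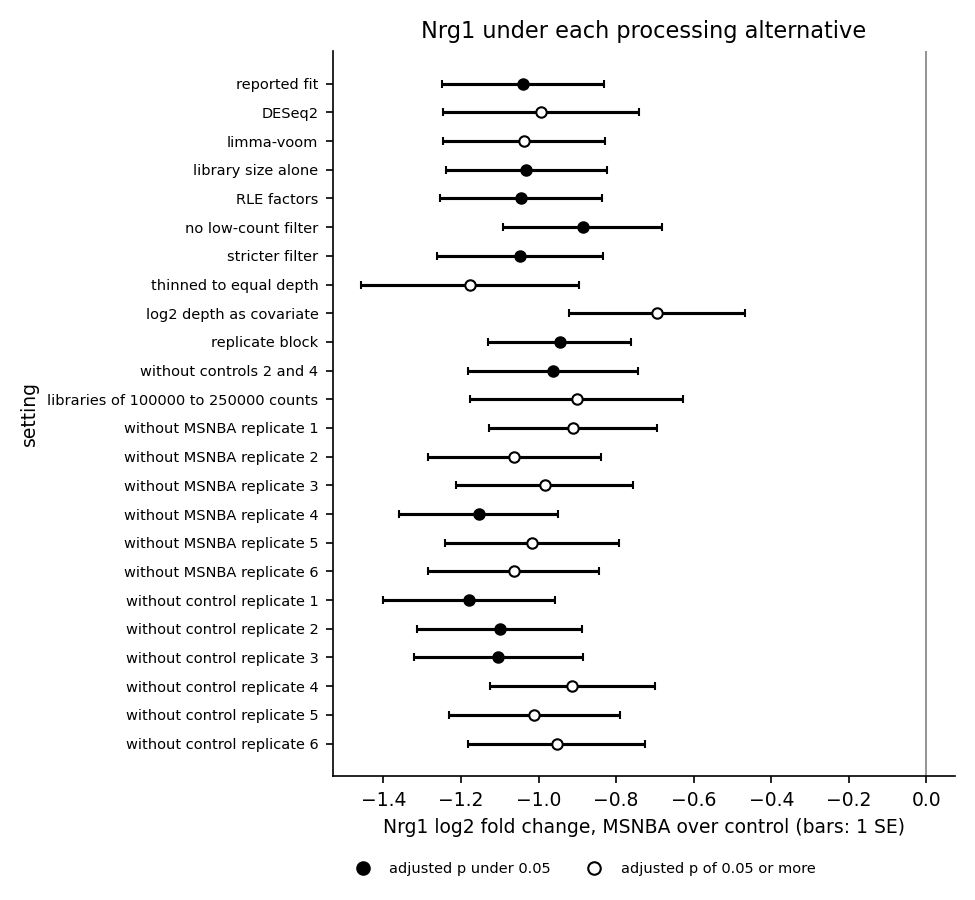
The Nrg1 log2 fold change, MSNBA over control, with 1 SE (horizontal axis), in the reported fit and 23 alternatives (vertical axis). All 24 values lie below 0, the highest being -0.70 with depth as a covariate, and filled points mark the settings past the adjusted threshold. Each setting refits libraries by which Nrg1 was chosen.

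Nrg1 lies on the minus strand of chromosome 8 from 31807452 to 32891609 of the mm10 assembly and has several promoters and many spliced forms. Counts were given per gene, so forms with different amino-terminal ends or EGF-like exons were summed. Of 9 RefSeq genes that overlap it, the table listed Gm8179 and Gm3985, with 2 and 3 counts over the 12 libraries against 351 for Nrg1.

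Among the other EGF family ligand genes, no member came near the level of Nrg1. Nrg1 made up 83.8% of the counts of the 11 ligand genes in MSNBA (186 of 222, exact 95% binomial interval 78.3 to 88.4%). In controls it made up 89.2% (165 of 185, interval 83.8 to 93.3%). The intervals of these shares pool the libraries of a group and cover counting error only. Hbegf, which encodes a heparin-binding ligand of Egfr and Erbb4, had 11 counts in MSNBA and 5 in controls. Tgfa, which encodes a ligand of Egfr, had 11 counts in MSNBA and 3 in controls. Nrg4, a ligand gene of the Erbb4 receptor, had 6 counts in MSNBA and 3 in controls. For Ereg, the epiregulin gene, there were 0 counts in MSNBA, which allows up to 1.88 CPM, and 4 in controls. The betacellulin gene Btc had 0 counts in all libraries, which allows up to 1.88 CPM in MSNBA and 4.41 CPM in controls, and Egf, Areg, Epgn, Nrg2 and Nrg3 had 3 counts or fewer in each group. Without Nrg1, the 10 ligand genes held 36 counts in MSNBA and 20 in controls, and their summed level was 25.9 ± 17.4 CPM in MSNBA and 30.6 ± 20.7 CPM in controls (SD, n = 6 each), a difference smaller than the spread between replicates. None of these 10 genes passed the low-count filter of the reported fit.

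Egfr was the ErbB receptor gene with most counts, and its levels in the groups overlapped broadly. It had 32, 3, 16, 4, 6 and 11 counts in MSNBA replicates 1 to 6, or 48.7, 19.9, 46.7, 42.5, 33.0 and 63.9 CPM. In control replicates 1 to 6 it had 11, 6, 3, 2, 5 and 8 counts, or 47.0, 77.9, 35.7, 25.1, 84.6 and 55.0 CPM. Only MSNBA 2 lay below all controls, and controls 2 and 5 lay above all MSNBA libraries. The means were 42.5 ± 14.9 CPM in MSNBA and 54.2 ± 23.4 CPM in controls (SD, n = 6 each), so that the difference was smaller than the spread between replicates. The ratio of pooled levels was 0.875 with a counting interval from 0.576 to 1.35, which holds both no change and the ratio of 0.595 at the upper end of the Nrg1 interval. Egfr lies on chromosome 11 from 16752203 to 16913907.

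Erbb2, Erbb3 and Erbb4, whose products form the receptor pairs for neuregulin 1, were at the edge of detection. Erbb2, the shared partner receptor, had 1 count each in MSNBA 2 and 5 and 0 in the other MSNBA libraries, against 2 in control 2, 1 in control 6 and 0 in the other controls. Erbb3, which binds neuregulin but has a weak kinase, had 2, 0, 3, 1, 2 and 1 counts in MSNBA 1 to 6, against 2 counts in control 2 and 0 in the other controls. Erbb4, the neuregulin receptor with a fully active kinase, had 2, 0, 1, 1, 1 and 3 counts in MSNBA 1 to 6, against 1 count each in controls 1, 5 and 6 and 0 in the others. Of these receptors, each had counts in at least 1 library of each group, and the groups overlapped for all of them.

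Pooled, Erbb2 measured 1.25 CPM in MSNBA (exact 95% Poisson interval 0.152 to 4.52) and 4.41 CPM in controls (0.910 to 12.9). Erbb3 measured 5.63 CPM in MSNBA (2.58 to 10.7) and 2.94 CPM in controls (0.356 to 10.6). Erbb4 measured 5.01 CPM in MSNBA (2.16 to 9.86) and 4.41 CPM in controls (0.910 to 12.9). The ratio of MSNBA over control was 0.284 (counting interval 0.0237 to 2.48) for Erbb2, 1.91 (0.396 to 18.2) for Erbb3 and 1.13 (0.272 to 6.64) for Erbb4, so that a difference in either direction was not detectable at this depth. The 2 control counts of Erbb3 both came from control 2, so without that library the controls were at 0. The 2 counts of control 2 were also most of the 3 control counts of Erbb2. These intervals cover counting error only. Erbb2 overlaps Mien1, which had 145 counts, and the strand of the counting is not given in the sources used here, so reads at that overlap cannot be told apart. In bulk RNA, fewer cells with a transcript and less transcript per cell cannot be told apart either.

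Per kilobase of exon, the order was Nrg1, Egfr and then the other receptors in both groups. Nrg1 measured 14.8 CPM per kb in MSNBA and 30.8 CPM per kb in controls, pooled over libraries and divided by 7880 bases of annotated exon. Egfr, with 10954 bases, measured 4.11 CPM per kb in MSNBA and 4.70 CPM per kb in controls. Nrg1 exceeded Egfr 3.59-fold per kb in MSNBA (counting interval 2.72 to 4.78) and 6.55-fold in controls (4.53 to 9.73), and had more counts than Egfr in all 12 libraries. Erbb2, Erbb3 and Erbb4 lay from 0.250 to 0.936 CPM per kb in MSNBA and from 0.365 to 0.881 CPM per kb in controls. Their counting intervals overlapped one another in each group, so that no order among them was resolved, and all lay below the intervals of Egfr. Egfr held 79.1% of ErbB receptor counts in MSNBA (72 of 91, exact 95% binomial interval 69.3 to 86.9%). In controls it held 81.4% (35 of 43, 66.6 to 91.6%). Both intervals pool the libraries of a group and cover counting error only. The deposited counts are named as UMI counts, that is, counts of tagged molecules, and whether they come from 1 end of the transcript is not stated. If they do, the division by length, and with it the 3.59-fold and 6.55-fold values, would not apply. The counts themselves were 186 for Nrg1 against 72 for Egfr in MSNBA and 165 against 35 in controls, in the same order.

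**Figure D4:**
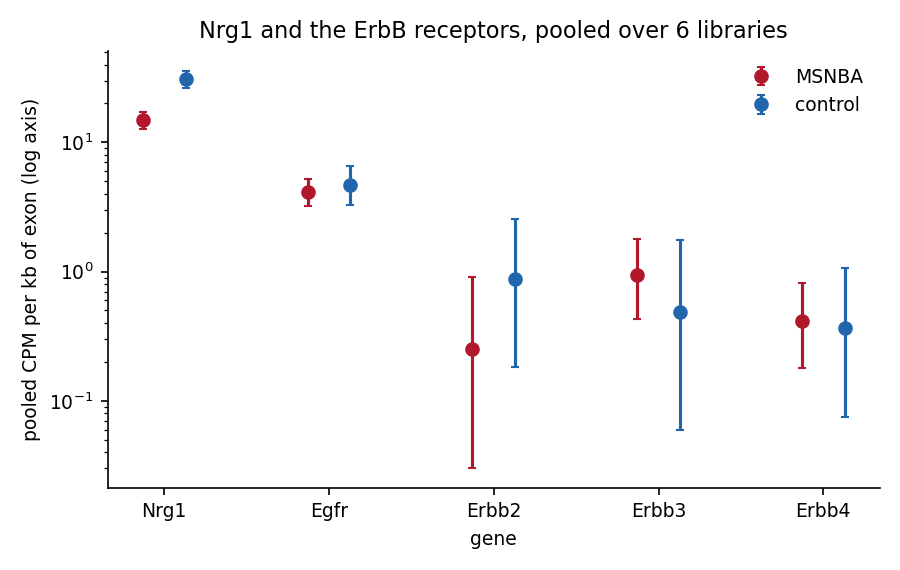
Level of each gene pooled over the 6 libraries of a group, in CPM per kb of exon on a log axis, with exact 95% Poisson intervals. The division by length assumes counts from along the whole transcript. Nrg1 stands at 14.8 in MSNBA and 30.8 in controls, Egfr at 4.11 and 4.70 in the same order, and the intervals of Erbb2, Erbb3 and Erbb4 overlap.

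Genes on either side of the receptors were read from 8 lists covering ligands, receptors, shedding, adaptors, kinases, inhibitors and responses. Besides the 5 genes above, the lists held 127 genes, 124 had at least 1 count and 25 were tested. Of these 25 genes, 0 rose and 0 fell at an adjusted p under 0.05 by edgeR, and DESeq2 and limma-voom called 0 of them. At an unadjusted p under 0.05, 0 were higher and 1 was lower by edgeR, where 4.17% of all tested genes were higher and 4.78% lower. Their median log2 fold change was -0.115, against -0.00823 over all tested genes.

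Shedding, the step that frees neuregulin from the membrane, was covered by 2 tested genes of 13. Timp3, an inhibitor of the shedding proteases, had a log2 value of 0.21 (SE 0.27, adjusted p = 0.854 by edgeR). Nrd1, which encodes nardilysin, an enhancer of shedding, had -0.12 (SE 0.26, adjusted p = 0.922 by edgeR). Levels of the 13 genes summed to 379 ± 56.5 CPM in MSNBA and 365 ± 81.2 CPM in controls (SD, n = 6 each). Among 18 adaptors, Grb2, which links receptors to RAS, was the tested gene and had 0.16 (SE 0.29, adjusted p = 0.911 by edgeR).

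In the RAS to ERK branch all 6 tested genes of 14 had values below 0, from -0.21 to -0.03, with a median of -0.145, and 0 passed. Over all tested genes 51.5% lay below 0. Mapk3, the gene of the ERK1 kinase, measured 219 ± 45.8 CPM in MSNBA and 232 ± 11.1 CPM in controls (SD, n = 6 each). Rras, a RAS-related gene with the most counts of the list, measured 289.9 ± 83.6 CPM in MSNBA and 290.1 ± 114 CPM in controls, and the sign of its log2 fold change turned in several settings. Without the low-count filter, where the median over the same 2614 genes was 0.136, the list's median was 0.00151, and with depth as a covariate it was -0.0092.

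In the PI3 kinase to AKT branch 6 genes of 22 were tested and 0 passed, with a median of -0.136. Without the low-count filter the list's median was 0.00897, where the median over the 2614 genes of the reported fit was 0.136. In libraries of 100000 to 250000 counts it was 0.00572, against 0.00834 over the genes of the reported fit. Tsc2, which encodes a brake on mTOR downstream of AKT, measured 95.9 ± 31.1 CPM in MSNBA and 158 ± 67.1 CPM in controls (SD, n = 6 each). Its log2 fold change was -0.61 (SE 0.25, unadjusted p = 0.0178, adjusted p = 0.401 by edgeR), and the libraries overlapped, from 53.1 to 149 CPM in MSNBA and from 82.5 to 260 CPM in controls. Gsk3b, a kinase gene that AKT signalling acts on, had -0.30 (SE 0.16, adjusted p = 0.583 by edgeR). Akt1, the gene of the branch's central kinase, measured 275 ± 18.6 CPM in MSNBA and 315 ± 18.7 CPM in controls (SD, n = 6 each). The difference was larger than either SD, with libraries from 252 to 297 CPM in MSNBA and from 288 to 339 CPM in controls, but the fitted log2 value of -0.21 (SE 0.15, adjusted p = 0.673 by edgeR) did not pass.

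Genes that stabilise, sort or restrain the receptors gave 7 tested members of 24, with 0 passed and a median of -0.189. That median was 0.0273 with the stricter filter, which keeps fewer of the genes, and -0.341 with depth as a covariate. Without the low-count filter it was -0.0432, where the median over the 2614 genes of the reported fit was 0.136. The list's median ran from -0.259 to -0.0927 with 1 library left out. Hsp90aa1 and Hsp90ab1 encode the HSP90 chaperones that hold Erbb2 in its folded state, and had log2 fold changes of 0.25 (SE 0.13, adjusted p = 0.571) and 0.11 (SE 0.11, adjusted p = 0.786) by edgeR. Cdc37, the kinase-directed partner of HSP90, had -0.31 (SE 0.22, adjusted p = 0.676 by edgeR), and Cd2ap, an adaptor in receptor sorting, had -0.35 (SE 0.23, adjusted p = 0.654 by edgeR). The direct inhibitors of the family, Errfi1 and Lrig1, had too few counts to be tested.

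ERK feedback and response genes were sparse, with 3 tested members of 26, 0 passed and a median of 0.144. Etv5, an ETS factor gene switched on by ERK, measured 82.5 ± 11.5 CPM in MSNBA and 109 ± 47.0 CPM in controls (SD, n = 6 each), with a fitted log2 value of -0.23 (SE 0.24, adjusted p = 0.807 by edgeR). Fosl2, of the AP-1 family, had 0.16 (SE 0.26, adjusted p = 0.896 by edgeR), and Ier3, an immediate early gene, had 0.14 (SE 0.28, adjusted p = 0.914 by edgeR). Levels of all 26 genes summed to 461 ± 55.5 CPM in MSNBA and 497 ± 83.0 CPM in controls (SD, n = 6 each), and differed by less than the spread between replicates. With depth in the model the list's median was -0.118.

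**Figure D5:**
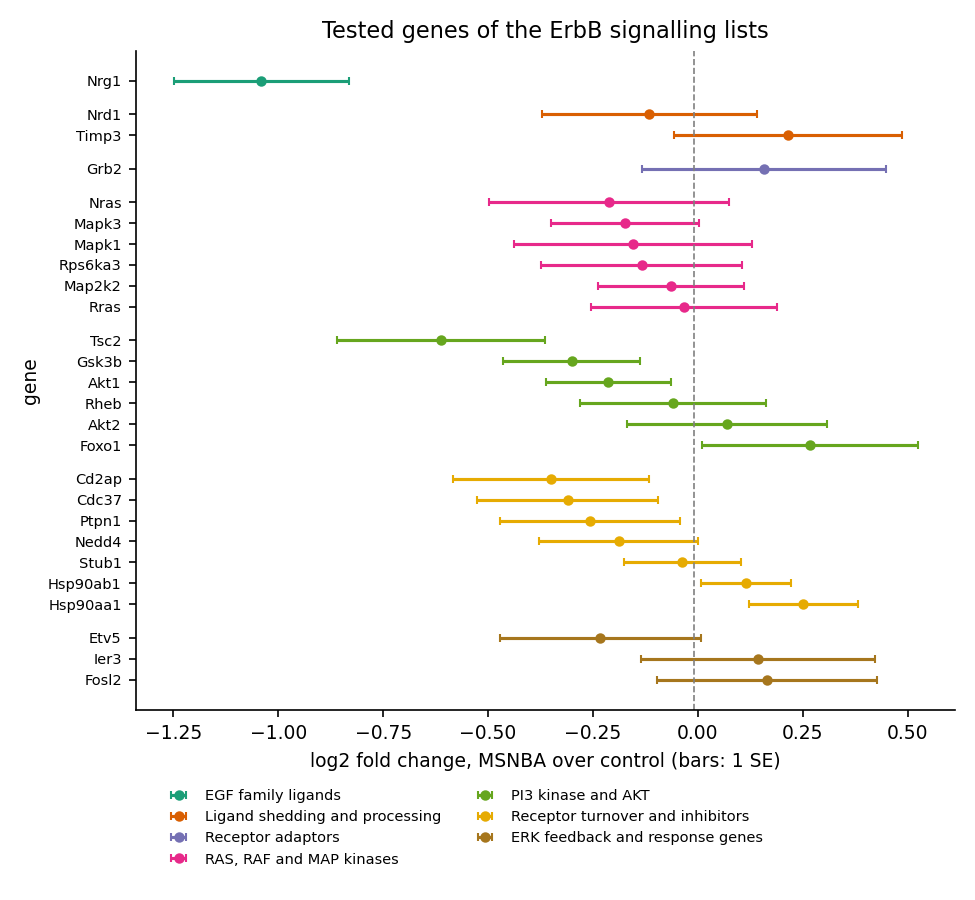
Log2 fold change, MSNBA over control, with 1 SE (horizontal axis) for the 26 tested genes of the signalling lists (vertical axis, coloured by list), with a dashed line at the median of all tested genes. Nrg1 lies at -1.04, and the other 25 lie between -0.61 and 0.27.

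The genes whose pattern was most like that of Nrg1 were taken from 2611 tested genes by the correlation of log2 CPM over the 12 libraries, a measure that contains the difference between groups. Prpf19, a ubiquitin ligase gene of the spliceosome, came first (Pearson r = 0.887, Spearman rho = 0.811 over 12 libraries). It measured 217 ± 24.2 CPM in MSNBA and 349 ± 97.0 CPM in controls (SD, n = 6 each). The next were Mapkap1, an mTORC2 subunit gene (r = 0.878), Arpc1b, of the actin-nucleating ARP2/3 complex (r = 0.87), Hsd17b7, a sterol enzyme gene (r = 0.83), and Tmem160 (r = 0.82). The lowest values were those of Ip6k1, an inositol phosphate kinase gene (r = -0.883), Ddt, the D-dopachrome tautomerase gene (r = -0.863), Gatad2a, of the NuRD complex (r = -0.823), Atp6v1f, a proton pump subunit gene (r = -0.823), and Prdx4, a peroxiredoxin gene (r = -0.805).

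When each group's mean was first removed, so that only differences among libraries of a group counted, other genes came first. The highest was Mtch1, of the mitochondrial outer membrane (r = 0.875 on these deviations over 12 libraries). On the same deviations Spsb2 had r = 0.835 and Man2b1, a lysosomal mannosidase gene, r = 0.832. Msmo1, a sterol oxidase gene, had r = 0.829 and Cmtm7 r = 0.828. These top 5 shared 0 genes with the top 5 over the 12 libraries, whose correlations on the same deviations ran from 0.596 to 0.749. The points share library depth and scaling, and the values are a description.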

How the data were processed

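PolyA RNA of 12 mLTC-1 libraries was profiled by sequencing of tagmented cDNA. The authors deposited raw counts per gene symbol, with no normalization, which by their name are UMI counts on RefSeq genes. BWA 0.7.4.4 and the mm10 assembly are named, per the submitters' processing notes. The counting program, strand and annotation release were not given in the sources used here. Groups came from the labels and not from the column order, and leaving out controls 2 and 4, which stand in a set with MSNBA libraries in that order, was one of the alternatives. The 5 genes and all lists were chosen with earlier results of these data known.

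Genes were filtered by filterByExpr (2614 tested, 79.2% of counts), scaled by TMM and tested by the robust quasi-likelihood F test of edgeR 4.0.16 (R 4.3.3), two-sided, with Benjamini-Hochberg adjustment and a threshold of 0.05. The SE was the log2 fold change over the square root of F. The scripts were tested on simulated data. Levels are CPM of library totals without TMM factors, so their ratios differ slightly from fitted folds. For pooled counts, intervals are exact Poisson at 95%, and the upper limit for a gene without counts is 3 counts over the group's total. Pooled ratios carry exact conditional intervals. Exon lengths were unions of GENCODE M21 basic exons, and gene positions came from RefSeq on GRCm38.p6, the same assembly as mm10.

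Named list genes were, by rule, those past the threshold, the 3 with the smallest p and the one with most counts in each list. Genes like Nrg1 needed a mean of 10 counts. Their correlations, and those of Nrg1 with depth, used TMM-scaled log2 CPM with a prior count of 2. Genes named as untested were chosen after their values were seen. Alternatives were DESeq2 1.42.0, limma-voom (limma 3.58.1), other scalings and filters, thinning, a depth covariate, a replicate block and libraries left out. No label says that replicate numbers pair libraries, so they were not taken to. Same-number residuals correlated over 0.1 in 3 of 6 pairs (-0.229 to 0.476 over 1672 genes). Different-number pairs were not computed for reference, so these values cannot decide whether libraries were paired.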

Additional observations from a re-analysis of the deposited data

Results flagged for a closer look

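MSNBA replicate 4 stood apart from the rest of its group for Nrg1, at 212 CPM where the next MSNBA library had 134 CPM. It was also the shallowest MSNBA library, with 94179 counts, and its 20 Nrg1 counts allow 130 to 328 CPM by an exact 95% Poisson interval, which reaches down to the upper values of the other MSNBA libraries and covers 5 of the 6 controls. Of 4 groups checked for a lone library, those of Nrg1 and Egfr in MSNBA and in controls, this was the 1 that held one, and chance flags about 1 in 20 such groups. Without it the Nrg1 log2 fold change was -1.15 (SE 0.20, adjusted p = 0.00308 by edgeR). Since that library was picked for its value, this is no independent evidence.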

How the results depend on the processing

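Nrg1, chosen by its value in these same libraries, stayed below 0 in all 23 alternatives and passed in 10. It missed with DESeq2 (-0.99), limma-voom (-1.04), thinning (-1.18), depth as a covariate (-0.70) and libraries of 100000 to 250000 counts (-0.90), and with 1 library left out ran from -1.18 to -0.91. The cause of these losses was not tested. The replicate block gave -0.95 (adjusted p = 0.0194 by edgeR) and 3 calls, against 2 reported, and changed no list call. Calls were 15 of 19576 genes without the low-count filter and 1 of 1319 with the stricter filter. They were 1 of 3453 genes in the 100000 to 250000 window and 7 of 3076 without controls 2 and 4. DESeq2, limma-voom, thinning and depth as a covariate gave 0 calls, and settings with 1 library left out gave 0 to 5. Calls in the lists were 0 in each setting. Signs turned for some uncalled genes. Without the low-count filter the median over the 2614 genes of the reported fit was 0.136, against -0.00823 with it. The genes whose sign turned there were Nrd1 (0.026), Rps6ka3 (0.018) and Rras (0.12). With depth as a covariate they were Mapk3 (0.059), Rras (0.35) and Ier3 (-0.18). In the depth window they were Nrd1 (0.082), Rras (0.44), Gsk3b (0.091), Hsp90aa1 (-0.0014), Etv5 (0.088), Ier3 (-0.18) and Erbb2 (0.47). Rras turned with thinning (0.24), the replicate block (0.0092) and without controls 2 and 4 (0.22), and ran from -0.17 to 0.19 with 1 library left out. Erbb4 turned with limma-voom (-0.26), thinning (-0.0067) and without controls 2 and 4 (-0.068), and ran from -0.17 to 0.71 with 1 left out, and Egfr from -0.19 to 0.021. Receptors passed neither the low-count filter of the reported fit nor the stricter one, so their log2 values here come from fits without a filter. With all 12 libraries by edgeR these were -0.094 for Egfr, -1.30 for Erbb2, 0.92 for Erbb3 and 0.31 for Erbb4. Erbb2 ran from -1.81 to -0.17 and Erbb3 from 0.46 to 3.39, the last without control 2. Erbb2, Erbb3 and Erbb4 are limited by depth, with at most 9 counts in a group.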
